A study of Arabidopsis thaliana with 29 samples.

Results

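The NAC transcription factors (named after NAM, ATAF and CUC) were examined in leaves of Arabidopsis thaliana plants that over-express GLUTAMINE DUMPER (GDU) genes, which encode small membrane proteins that alter amino acid export. Members were all entries of the authors' deposited tables in which a listed name was NAC, ANAC or ATNAC followed by a number. NAP and ORE1, senescence regulators of the same family, were left out. The name rule found 79 entries, 1 of which is at the ORE1 locus, and left 78 of 32650 entries. These hold 80 NAC genes, because 3 entries join neighbouring genes (ANAC003 with ANAC004 and ANAC005, ANAC068 with ANAC069, and ANAC027 with AT1G64100) and ANAC035 has 2 entries. NAC genes listed under other symbols only, such as RD26 and ATAF1, are outside the rule.

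NAC proteins are plant-specific transcription factors that share a DNA-binding domain near the amino terminus and carry a variable activating or repressing tail. Members act in abscisic acid and jasmonate responses to drought, in leaf senescence and in the building of secondary walls in xylem. Several are kept in membranes and released by proteolysis under stress. In leaves the family is known as a set of regulators of stress and ageing, and amino acids are recycled out of ageing leaves.

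RNA from all leaves of 4 to 6 plants per library was sequenced in 29 libraries in 12 groups of the Columbia ecotype, after 23 days on soil (4 weeks in the series description) at 22 °C with 16 h of light and 8 h of dark. Dex-GDU1 plants carry GDU1 under the dexamethasone-inducible 6Op-LHGRn system, and 4c-S7 is the parental line used as control. Both lines were sprayed 5 h after dawn with 100 µM dexamethasone and 300 ppm Silwet, kept under a dome for 7 h, and sampled after 7 h (3 Dex-GDU1 and 4 4c-S7 libraries) or 25 h (3 and 4 libraries). The unsprayed homozygous lines were gdu1-1D, a dominant over-expressor of GDU1 (3 libraries), and lines of 2 libraries each named 35S-GDU2, 35S-GDU4 and, further, 35S-GDU5 and 35S-GDU6. In the 35S lines the CaMV 35S promoter, active in most cell types, drives the GDU gene. The 2 libraries of untransformed Col wild type served as control for all 5 lines. Single libraries of 35S-GDU1 and 35S-GDU3 were not analysed here. No group of unsprayed Dex-GDU1 or 4c-S7 plants was analysed, so induction of GDU1 and lasting differences between these lines cannot be told apart. Since the constitutive comparisons share the Col libraries, their values are only set side by side.

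The tables give 1 FPKM value (fragments scaled to transcript length and sequencing depth) per entry and group. The number of reads per library is not given in the sources used here, no spread between libraries could be shown, and whether the libraries of 2 groups overlap could not be seen. An entry was called where the authors' q-value was below 0.05. These tests see only the spread among libraries, or among sequencing runs, and that spread may be technical. Fold changes are the line's FPKM divided by the control's, and each standard error was recomputed from the p-value, which makes it an upper bound at the smallest p-value of 5e-05. The standard error of a difference between changes is then an upper bound too. Both bounds hold only if the authors' p-values follow a normal test, which could not be checked. Fewer members passed with the standard error from the deposited test statistic, so the bound does not make the calls cautious. A difference that did not pass is no sign of equal changes. GDU1 stood at 23.3 FPKM in 4c-S7 and 5281 in Dex-GDU1 at 7 h in the authors' deposited table, and GDU1, GDU2, GDU5 and GDU6 were each called higher in the line named for them. Further GDU genes were called higher too: GDU1 and GDU6 in 35S-GDU2, GDU1, GDU2 and GDU6 in 35S-GDU5, and GDU1 in 35S-GDU6. GDU4 stood at 8.72 FPKM in Col and 10.9 in the libraries labelled 35S-GDU4 in the authors' deposited table (q = 0.949), while GDU2 (2.63 and 12 FPKM) and GDU5 (2.58 and 5.28 FPKM) were called higher in those libraries, so their results are given for the label only. The GDU4 entry lies in a stretch of reads that 47 entries share. In bulk leaf RNA, fewer cells of a type and less RNA per cell cannot be told apart.

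Members of the family were called higher more often than lower in all 7 comparisons. At 7 h 6 of 47 tested members were higher and 1 was lower in Dex-GDU1, beside 8.76% and 7.19% of all tested entries (16.0% in both directions). At 25 h 22 of 48 were higher and 4 lower, beside 24.5% and 21.6% of all tested entries (46.1% in both directions). The share of members called higher was therefore 12.8% at 7 h, near the background of 8.76%, and 45.8% at 25 h, against a background of 24.5%. In gdu1-1D 25 of 47 members were higher and 4 lower, beside 23.1% and 21.4% (44.5% in both). In 35S-GDU2 15 of 44 were higher and 3 lower, beside 14.5% and 10.2% (24.7% in both). The libraries labelled 35S-GDU4 had 7 of 37 members higher and 4 lower, beside 9.65% and 5.71% (15.4% in both). In 35S-GDU5 23 of 47 members were higher and 8 lower, beside 28.5% and 26.5% (55.0% in both). In 35S-GDU6 15 of 42 were higher and 8 lower, beside 24.9% and 23.9% (48.8% in both). No test was made of the members as a list. The median log2 fold change of the tested members was 0.27 at 25 h, where that of all tested entries was 0.00, and 0.55 in 35S-GDU5, where that of all was 0.01.

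**Figure D1:**
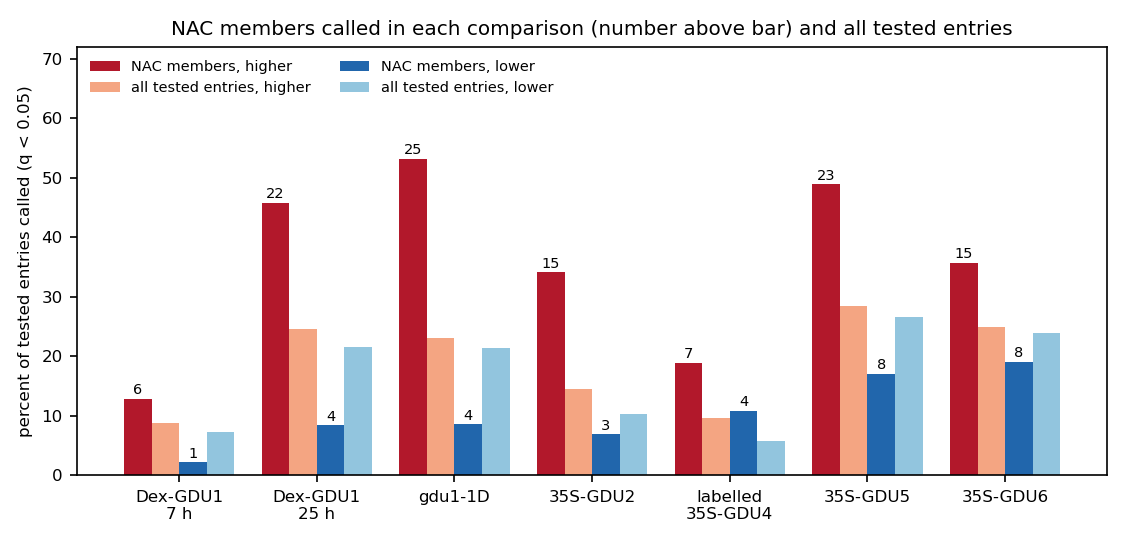
Members of the NAC family called higher or lower at q below 0.05 in each of the 7 comparisons, as a percentage of the tested members, with the same percentages over all tested entries beside them. The share called higher was 12.8% of the members at 7 h and 45.8% at 25 h, against 8.76% and 24.5% of all tested entries.

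Of the 78 entries 51 were tested in at least 1 comparison and 35 in all 7. The other 27 reached at most 0.732 FPKM in any group, and 5 of them were listed at 0 in all 14 columns. Among the tested entries 36 were called at least once, 24 of them only higher, 9 only lower and 3 in both directions, and 15 were never called. There were 21 entries called in at least 4 comparisons, and 4 called in all 7: ANAC036, ANAC062 and ANAC102, which were higher throughout, and ANAC041, which was lower throughout. The 3 entries called in both directions were ANAC013, ANAC035 and the joined ANAC003, ANAC004 and ANAC005. The share of all entries called this often was not computed, and the comparisons of unsprayed lines share Col. These counts therefore describe the members only and show no trait of the family. Among the 78 entries 19 lie in a stretch of overlapping reads shared with another entry, and their values depend on how the authors' tools divided the reads.

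**Figure D2:**
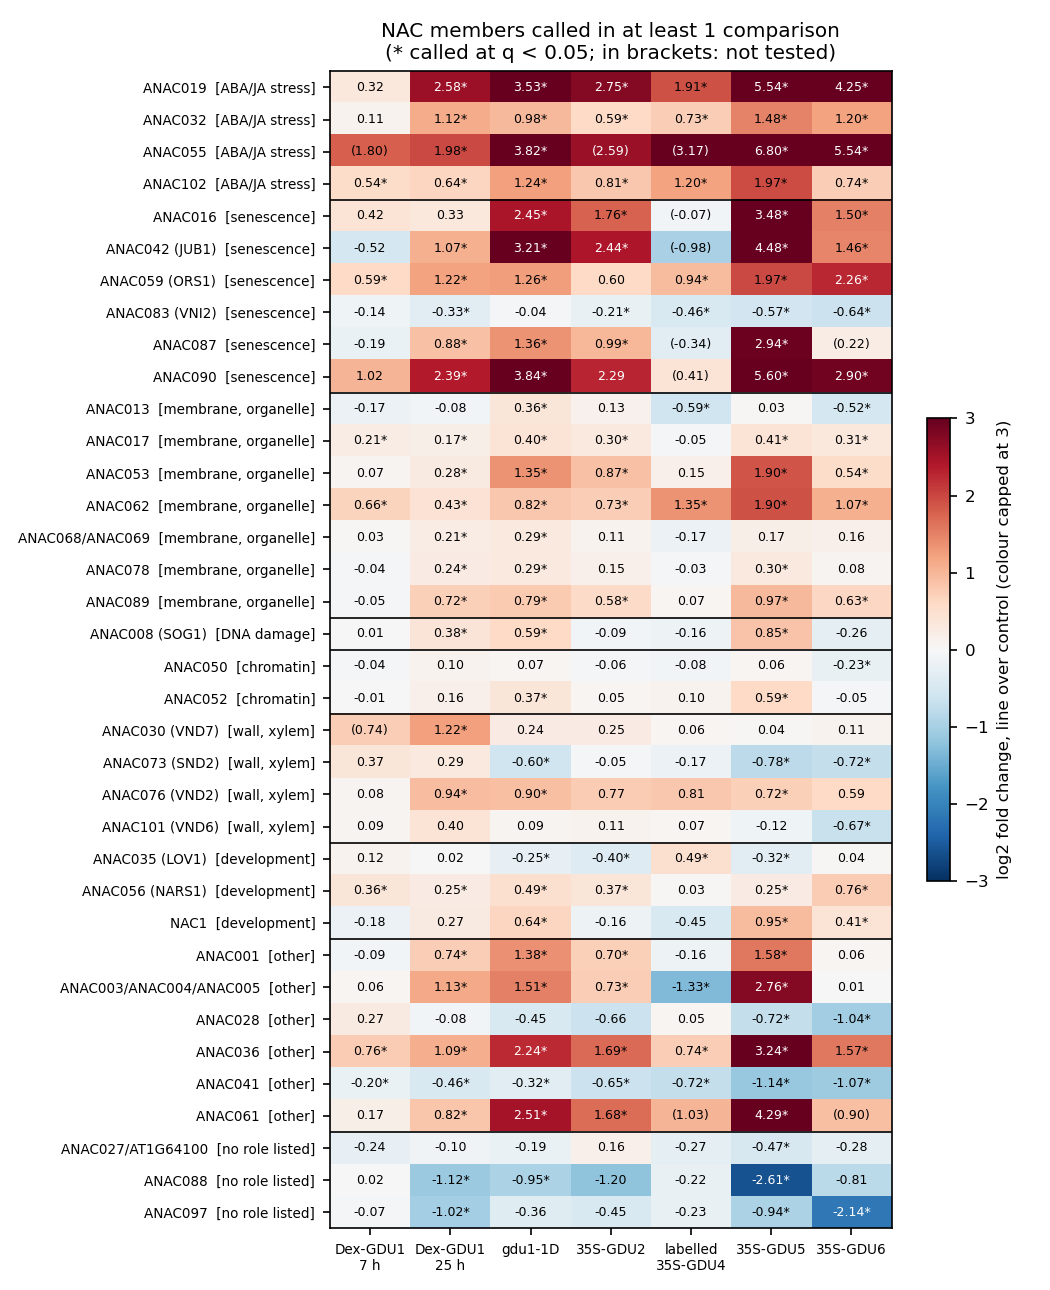
Log2 fold change (line over control, from FPKM) of the NAC members called at least once, grouped by role, in the 7 comparisons, with asterisks on the entries called at q below 0.05 and brackets around values that were not tested. ANAC019, ANAC055 and ANAC090 carry the highest values, up to 6.80 for ANAC055 in 35S-GDU5, and the ANAC041 row is below 0 in every column.

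The members known from abscisic acid and jasmonate responses included the highest fold change of the family, that of ANAC055 in 35S-GDU5. ANAC019, ANAC032, ANAC055 and ANAC102 were called higher at 25 h, in gdu1-1D, in 35S-GDU5 and in 35S-GDU6, which is 4 of the 5 tested members of this role in each, beside 24.5%, 23.1%, 28.5% and 24.9% of all tested entries. The counts were 3 of 4 in 35S-GDU2 and 3 of 3 in the libraries labelled 35S-GDU4, beside 14.5% and 9.65%. At 7 h 1 of 4 tested members was called, ANAC102, beside 8.76%. ANAC019 and ANAC055 are known to be induced by drought, abscisic acid and jasmonate and to act below the jasmonate regulator MYC2. ANAC032 and ANAC102 are stress-induced relatives of ATAF1.

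ANAC019 (AT1G52890, chromosome 1, 19697004 to 19698482 on TAIR10) stood at 1.69 FPKM in 4c-S7 and 2.12 in Dex-GDU1 at 7 h, and 2.35 and 14 at 25 h in the authors' deposited tables. It was thus close between the lines at 7 h and 5.96-fold apart at 25 h (log2 fold change 2.58, standard error at most 0.635, q = 0.00019 by the authors' Cuffdiff test). The constitutive lines held 5.65 in gdu1-1D, 3.19 in 35S-GDU2, 1.72 in the libraries labelled 35S-GDU4, 23.6 in 35S-GDU5 and 8.68 in 35S-GDU6, against 0.457 to 0.507 FPKM in Col (the range over the 5 tables), in the authors' deposited tables. All 5 of these were called, and the rise ran from 3.75-fold in the libraries labelled 35S-GDU4 to 46.5-fold in 35S-GDU5. With 1 FPKM added to both values the log2 rise of ANAC019 in 35S-GDU5 was 4.03 in place of 5.54. The change of ANAC019 at 25 h exceeded that at 7 h by 2.25 on the log2 scale (standard error 0.662, adjusted p of 0.00843, normal test of the difference with Benjamini-Hochberg adjustment over all 17114 entries tested at both times). Among the members that passed this test, ANAC019 alone also passed with the standard error taken from the deposited test statistic.

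ANAC055 (AT3G15500, listed as NAC3, chromosome 3, 5234617 to 5236088), the close relative of ANAC019, was low in every control. Its levels were 0.226 FPKM in 4c-S7 and 0.788 in Dex-GDU1 at 7 h, and 0.31 and 1.22 at 25 h in the authors' deposited tables. At 7 h it was not tested, and at 25 h it was called 3.93-fold higher (log2 fold change 1.98, standard error at most 0.487). The constitutive lines held 1.13 in gdu1-1D, 0.465 in 35S-GDU2, 0.671 in the libraries labelled 35S-GDU4, 9.18 in 35S-GDU5 and 3.47 in 35S-GDU6, against 0.0746 to 0.0826 FPKM in Col, in the authors' deposited tables. The calls were in gdu1-1D, 35S-GDU5 and 35S-GDU6, while 35S-GDU2 and the libraries labelled 35S-GDU4 were not tested. The ratio depends on how so low a level in Col is treated: the rise of ANAC055 in 35S-GDU5 was 6.80 on the log2 scale as a plain ratio and 3.23 with 1 FPKM added to both values.

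ANAC032 (AT1G77450, chromosome 1, 29099954 to 29101261) stood at 8.43 FPKM in 4c-S7 and 9.13 in Dex-GDU1 at 7 h, and 5.86 and 12.8 at 25 h in the authors' deposited tables. It was called at 25 h (2.17-fold, q = 0.00019) and not at 7 h (1.08-fold, q = 0.528). Against 2.12 to 2.35 FPKM in Col, the authors' deposited tables list 4.49 in gdu1-1D, 3.31 in 35S-GDU2, 3.52 in the libraries labelled 35S-GDU4, 6.55 in 35S-GDU5 and 4.87 in 35S-GDU6, and all 5 were called higher. The rise was 1.51-fold in 35S-GDU2, with q = 0.0428, and 2.79-fold in 35S-GDU5.

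ANAC102 (AT5G63790, chromosome 5, 25523769 to 25528013), which is needed for germination under low oxygen, was the member of this role that was called in all 7 comparisons. It stood at 53.5 FPKM in 4c-S7 and 78 in Dex-GDU1 at 7 h, and 47.9 and 74.8 at 25 h in the authors' deposited tables. The rise in Dex-GDU1 was 1.46-fold at 7 h and 1.56-fold at 25 h. The difference between these changes did not pass (0.10 on the log2 scale, standard error at most 0.216, adjusted p of 0.830). Levels without spraying were 11.7 to 13 FPKM in Col and, among the lines, 29.6 in gdu1-1D, 21.3 in 35S-GDU2, 26.9 in the libraries labelled 35S-GDU4, 50.8 in 35S-GDU5 and 19.6 in 35S-GDU6 in the authors' deposited tables. The sprayed 4c-S7 controls were thus listed above unsprayed Col, but these tables were normalised separately, and line, treatment and time differ. ANAC102 shares its stretch with SHA1, which was called lower in 35S-GDU5 (60.7 and 40.3 FPKM in Col and the line in the authors' deposited table) and higher in 35S-GDU2 and 35S-GDU6.

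ANAC047, a driver of upward leaf bending under waterlogging, had large ratios that were not called. It stood at 1.37 FPKM in 4c-S7 and 1.19 in Dex-GDU1 at 7 h, and 1.23 and 3.9 at 25 h in the authors' deposited tables. Per the authors' deposited tables, the unsprayed lines had 2.07 in gdu1-1D, 1.08 in 35S-GDU2, 0.525 in the libraries labelled 35S-GDU4, 11.9 in 35S-GDU5 and 2.07 in 35S-GDU6, beside 0.261 to 0.289 FPKM in Col. The q-value was 0.316 in 35S-GDU5 in spite of a ratio of 41.1, and the entry lies in a stretch of reads shared by 87 entries. Entries in stretches of at least 20 were rarely called, at 5.77% of those tested in 35S-GDU5 against 57.1% elsewhere. ANAC096, the remaining member of this role, was not tested in any comparison.

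The bases upstream of 3 of these genes, all called higher at 25 h, are shown. Their 250-base windows differ in the letters known from abscisic acid responses. ANAC102, also called higher at 25 h, is not shown. Each line holds the 250 bases before the RefSeq gene start on TAIR10.1, read 5′ to 3′ on the strand of the gene, with capitals for any match to CACGTG (the G-box), ACGTG (the core of the abscisic acid response element), TTGACC or TTGACT (W-box forms bound by WRKY factors), or the spaced NAC-binding pair (CTTG and, after 5 bases, CAAG or CACG), on either strand. The ANAC019 window is chr1:19698483-19698732 on the minus strand, the ANAC032 window chr1:29099589-29099838 on the plus strand and the ANAC055 window chr3:5234207-5234456 on the plus strand.
ANAC019: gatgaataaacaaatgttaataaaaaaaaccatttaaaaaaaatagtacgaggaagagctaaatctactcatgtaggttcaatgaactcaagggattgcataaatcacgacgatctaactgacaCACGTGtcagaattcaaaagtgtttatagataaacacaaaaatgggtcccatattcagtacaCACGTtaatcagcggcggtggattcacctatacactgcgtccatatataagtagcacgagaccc
ANAC032: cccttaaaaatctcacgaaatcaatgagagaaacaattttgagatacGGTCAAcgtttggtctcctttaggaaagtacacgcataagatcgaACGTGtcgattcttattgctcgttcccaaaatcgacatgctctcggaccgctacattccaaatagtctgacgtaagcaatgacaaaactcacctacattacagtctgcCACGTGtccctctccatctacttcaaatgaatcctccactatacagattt
ANAC055: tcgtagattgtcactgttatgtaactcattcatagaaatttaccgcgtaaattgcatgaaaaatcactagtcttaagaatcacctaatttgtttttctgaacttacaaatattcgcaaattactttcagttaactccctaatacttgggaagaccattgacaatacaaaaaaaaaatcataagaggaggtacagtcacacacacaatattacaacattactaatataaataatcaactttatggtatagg
Counted from the gene start, ANAC019 holds the G-box at -126 and a further ACGTG on the opposite strand at -64. ANAC032 holds a G-box at -50, a further ACGTG at -158 and TTGACC on the opposite strand at -203. The ANAC055 window holds none of these letters. The ANAC032 and ANAC055 windows end ahead of the starts listed for these entries (29099954 and 5234617). The ANAC019 window adjoins its entry. Bases outside the windows were not searched, so a letter missing from a window may lie nearby. Every G-box also counts as ACGTG. Of the members called higher at 25 h that have such a window, 8 of 20 (40.0%) hold ACGTG, as do 8 of 24 (33.3%) of the members tested and not called higher, and 22.9% of all 27437 protein-coding promoters. The G-box is in 3 of the 20 (15.0%), 1 of the 24 (4.17%) and 6.49% of all. TTGACC is in 15.0%, 4.17% and 12.2%, and TTGACT in 15.0%, 8.33% and 19.1%. The spaced pair ending in CAAG is in 0 of the 20, 1 of the 24 and 0.74% of all promoters, and that ending in CACG in 1 of the 20, 1 of the 24 and 0.467% of all. A match is a description of letters and shows no binding.

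A list of known targets of these factors was followed in the same comparisons. Neither this list nor the target lists counted below were split into activated and repressed genes. The part of the NAC factors in the changes of these genes was not tested. At 25 h 9 of 11 tested genes of a list of ANAC019, ANAC055, ANAC032 and ATAF targets were called higher and 0 lower, beside 24.5% and 21.6% of all tested entries, with a median log2 fold change of 0.57 against 0.00 over all entries. BSMT1, which makes methyl salicylate and is activated by ANAC019 and its relatives, stood at 0.262 FPKM in 4c-S7 and 5.96 in Dex-GDU1 in the authors' deposited table. VSP1 and VSP2, storage proteins induced by jasmonate, rose by 1.19 and 1.39 on the log2 scale at 25 h and by 4.89 and 3.66 in gdu1-1D. ICS1, which makes salicylic acid and is repressed by ANAC019 and its relatives in response to coronatine, was higher in both (log2 fold changes 0.56 and 1.52). BSMT1 was not tested in gdu1-1D, at 0.154 and 0.616 FPKM in the authors' deposited table, nor in 35S-GDU5, at 0.159 and 0.118 FPKM. At 7 h 3 of 10 tested genes of the list were higher, beside 8.76% of all, among them NCED3, which makes the abscisic acid precursor (2.2 and 7.36 FPKM in 4c-S7 and Dex-GDU1 in the authors' deposited table). The counts of higher genes in the list were 8 of 10 in gdu1-1D, 6 of 10 in 35S-GDU2, 4 of 10 in the libraries labelled 35S-GDU4, 7 of 10 in 35S-GDU5 and 7 of 10 in 35S-GDU6, with 0 lower in each, beside 23.1%, 14.5%, 9.65%, 28.5% and 24.9% of all tested entries higher in that order.

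Of the 7 members known to hasten or delay leaf senescence, 4 were called higher and 1 lower at 25 h, beside 24.5% and 21.6% of all tested entries, and 1 was higher and 0 lower at 7 h, beside 8.76% and 7.19%. In gdu1-1D 5 were higher and 0 lower, beside 23.1% and 21.4%, and in 35S-GDU5 5 were higher and 1 lower, beside 28.5% and 26.5%. In 35S-GDU2 3 of 7 were higher and 1 lower (14.5% and 10.2% of all), in 35S-GDU6 4 of 6 and 1 (24.9% and 23.9%), and in the libraries labelled 35S-GDU4 1 of 2 and 1 (9.65% and 5.71%). Members that promote senescence (ORS1, ANAC016) and members that delay it (JUB1, ANAC090) were both among those that rose, and VNI2, which delays it, was the one that fell.

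ANAC090 (AT5G22380, chromosome 5, 7406054 to 7410102), which holds back senescence and salicylic acid responses, stood at 0.522 FPKM in 4c-S7 and 1.06 in Dex-GDU1 at 7 h, and 0.687 and 3.6 at 25 h in the authors' deposited tables. The rise was called at 25 h (5.24-fold, log2 fold change 2.39, standard error 0.701, q = 0.00206) and not at 7 h (q = 0.254). The difference between the times did not pass (1.37 on the log2 scale, standard error 0.908, adjusted p of 0.316). Unsprayed plants had 0.387 to 0.429 FPKM in Col, and the lines had 5.93 in gdu1-1D, 1.96 in 35S-GDU2, 0.513 in the libraries labelled 35S-GDU4, 20.8 in 35S-GDU5 and 2.88 in 35S-GDU6, in the authors' deposited tables. It was called in gdu1-1D, 35S-GDU5 and 35S-GDU6, where its level was highest in 35S-GDU5 at 48.6 times that of Col (log2 rise 5.60, or 3.93 with 1 FPKM added to both values). It shares its stretch with EMB1705, which was not called in any comparison.

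The ANAC090 promoter is shown because this member had the second largest rise at 25 h after ANAC019. The window is chr5:7410103-7410352 on the minus strand of TAIR10.1, from RefSeq, with capitals as above.
ANAC090: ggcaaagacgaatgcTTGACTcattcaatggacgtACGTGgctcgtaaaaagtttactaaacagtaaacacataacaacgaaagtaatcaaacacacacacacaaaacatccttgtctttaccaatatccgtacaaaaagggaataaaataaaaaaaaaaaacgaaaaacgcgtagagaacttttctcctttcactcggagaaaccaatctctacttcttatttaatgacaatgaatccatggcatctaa
It holds TTGACT at -235 and ACGTG at -215, and neither the G-box nor TTGACC.

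ORS1 (ANAC059, AT3G29035, a second entry listed as NAC3), the close relative of ORE1 and a promoter of senescence, was called at both times. It stood at 2.39 FPKM in 4c-S7 and 3.59 in Dex-GDU1 at 7 h, and 1.47 and 3.43 at 25 h in the authors' deposited tables. Its rise was 1.5-fold at 7 h and 2.33-fold at 25 h, and the difference did not pass (0.63 on the log2 scale, standard error 0.334, adjusted p of 0.187). The constitutive lines held 2.46 in gdu1-1D, 1.51 in 35S-GDU2, 1.85 in the libraries labelled 35S-GDU4, 4.17 in 35S-GDU5 and 4.6 in 35S-GDU6, against 0.961 to 1.07 FPKM in Col, in the authors' deposited tables. Only 35S-GDU2 was not called (q = 0.115), and 35S-GDU6 held the highest ratio, 4.78-fold.

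JUNGBRUNNEN1 (JUB1, ANAC042, AT2G43000), a hydrogen peroxide-induced gene that lengthens leaf life, was at 2.22 FPKM in 4c-S7 and 1.54 in Dex-GDU1 at 7 h, and 1.58 and 3.32 at 25 h in the authors' deposited tables. Its value was lower in Dex-GDU1 at 7 h without being called (q = 0.15) and 2.1-fold higher at 25 h. The change at 25 h exceeded that at 7 h by 1.59 on the log2 scale (standard error 0.362, adjusted p of 0.000548). Against 0.594 to 0.658 FPKM in Col, the authors' deposited tables list 5.87 in gdu1-1D, 3.33 in 35S-GDU2, 0.302 in the libraries labelled 35S-GDU4, 14.7 in 35S-GDU5 and 1.63 in 35S-GDU6. Every line but the libraries labelled 35S-GDU4, where it was not tested, was called higher, up to 22.3-fold in 35S-GDU5 (log2 rise 4.48, or 3.24 with 1 FPKM added to both values). In Col and 35S-GDU5 the JUB1 target DREB2A, which it activates, was listed at 0.357 and 1.92 FPKM in the authors' deposited table and called higher. DWF4, a brassinosteroid enzyme that JUB1 represses, was listed at 9.91 and 4.31 FPKM in the same of the authors' deposited tables and called lower. GA3OX1, a gibberellin enzyme it represses, was listed there at 9.56 and 2.76 FPKM and not called, in a stretch shared by 52 entries. These targets are given only for 35S-GDU5, where JUB1 was highest and 55.0% of all tested entries were called in both directions. The part of JUB1 in their changes was not tested.

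ANAC016, which promotes senescence and drought responses, had a higher change in gdu1-1D than in Dex-GDU1 at 25 h, although line, control, spray and sampling differ between these comparisons as well. It stood at 0.77 FPKM in 4c-S7 and 1.03 in Dex-GDU1 at 7 h, and 0.676 and 0.848 at 25 h in the authors' deposited tables, and neither time was called. In gdu1-1D it was at 2.25 FPKM against 0.411 in Col in the authors' deposited table, a 5.47-fold rise. The change in gdu1-1D exceeded that of Dex-GDU1 at 25 h by 2.13 on the log2 scale (standard error 0.637, adjusted p of 0.0138), a difference that passed neither at an adjusted p below 0.01 nor with the standard error from the test statistic. The other lines held 1.35 FPKM in 35S-GDU2, 0.366 in the libraries labelled 35S-GDU4, 4.75 in 35S-GDU5 and 1.09 in 35S-GDU6, against 0.385 to 0.427 FPKM in Col, in the authors' deposited tables. 35S-GDU2, 35S-GDU5 and 35S-GDU6 were called, and 35S-GDU5 was the highest.

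ANAC087, which with ANAC046 takes part in programmed cell death of the root cap, stood at 2.05 FPKM in 4c-S7 and 1.8 in Dex-GDU1 at 7 h, and 1.06 and 1.95 at 25 h in the authors' deposited tables. It was called at 25 h (1.84-fold) and not at 7 h, and the changes differed by 1.07 on the log2 scale (standard error 0.273, adjusted p of 0.00220). Levels without spraying were 0.613 to 0.679 FPKM in Col and, among the lines, 1.68 in gdu1-1D, 1.26 in 35S-GDU2, 0.485 in the libraries labelled 35S-GDU4, 5.22 in 35S-GDU5 and 0.715 in 35S-GDU6 in the authors' deposited tables. It was called higher in gdu1-1D, 35S-GDU2 and 35S-GDU5. ANAC046, which also promotes chlorophyll breakdown, was tested in 6 comparisons and called in none, although the authors' deposited tables list 0.586 FPKM in 4c-S7 and 1.83 in Dex-GDU1 at 25 h, and 0.478 in Col and 3.38 in 35S-GDU5. It lies in the stretch shared by 87 entries.

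VND-INTERACTING2 (VNI2, ANAC083, AT5G13180), a repressor of xylem vessel formation that also delays senescence, had the highest level of the family in Col. It stood at 70.4 FPKM in 4c-S7 and 64 in Dex-GDU1 at 7 h, and 79.5 and 63.1 at 25 h in the authors' deposited tables. The fall at 25 h was 1.26-fold (log2 fold change -0.33, standard error at most 0.0825), and 7 h was not called. Per the authors' deposited tables, the unsprayed lines had 81.4 in gdu1-1D, 69.8 in 35S-GDU2, 56.9 in the libraries labelled 35S-GDU4, 58.3 in 35S-GDU5 and 50.1 in 35S-GDU6, beside 78 to 86.5 FPKM in Col. All of these but gdu1-1D (q = 0.758) were called lower, and the 35S-GDU6 level was 1.56-fold below Col.

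Among 8 genes known as targets of senescence NAC factors, 5 were higher and 0 lower of 8 tested at 25 h, and 1 was higher of 6 tested at 7 h, beside 24.5% and 8.76% of all tested entries called higher. The list is not split by regulator, and NAP and ORE1, left out of the members, are senescence NAC factors too. The counts were 3 higher and 1 lower of 8 in gdu1-1D, 2 and 1 of 7 in 35S-GDU2, 0 and 1 of 6 in the libraries labelled 35S-GDU4, 3 and 2 of 8 in 35S-GDU5 and 2 and 1 of 8 in 35S-GDU6, beside 23.1%, 14.5%, 9.65%, 28.5% and 24.9% of all tested entries called higher. Called lower, in that order, were 21.4%, 10.2%, 5.71%, 26.5% and 23.9%. The list's median log2 fold change was 0.45 at 25 h, 0.10 in gdu1-1D and 0.13 in 35S-GDU5. SAG113, a phosphatase of ageing leaves, stood at 0.968 FPKM in 4c-S7 and 8.72 in Dex-GDU1 at 25 h in the authors' deposited table. SWEET15, a sugar exporter also called SAG29, stood at 1.94 and 18.9 FPKM there. Both were also higher in gdu1-1D (log2 fold changes 4.16 and 1.76) and in 35S-GDU5 (4.36 and 1.23). BFN1, a nuclease of dying cells, was higher at 25 h (0.41 on the log2 scale) and was not called in gdu1-1D (-0.06).

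**Figure D3:**
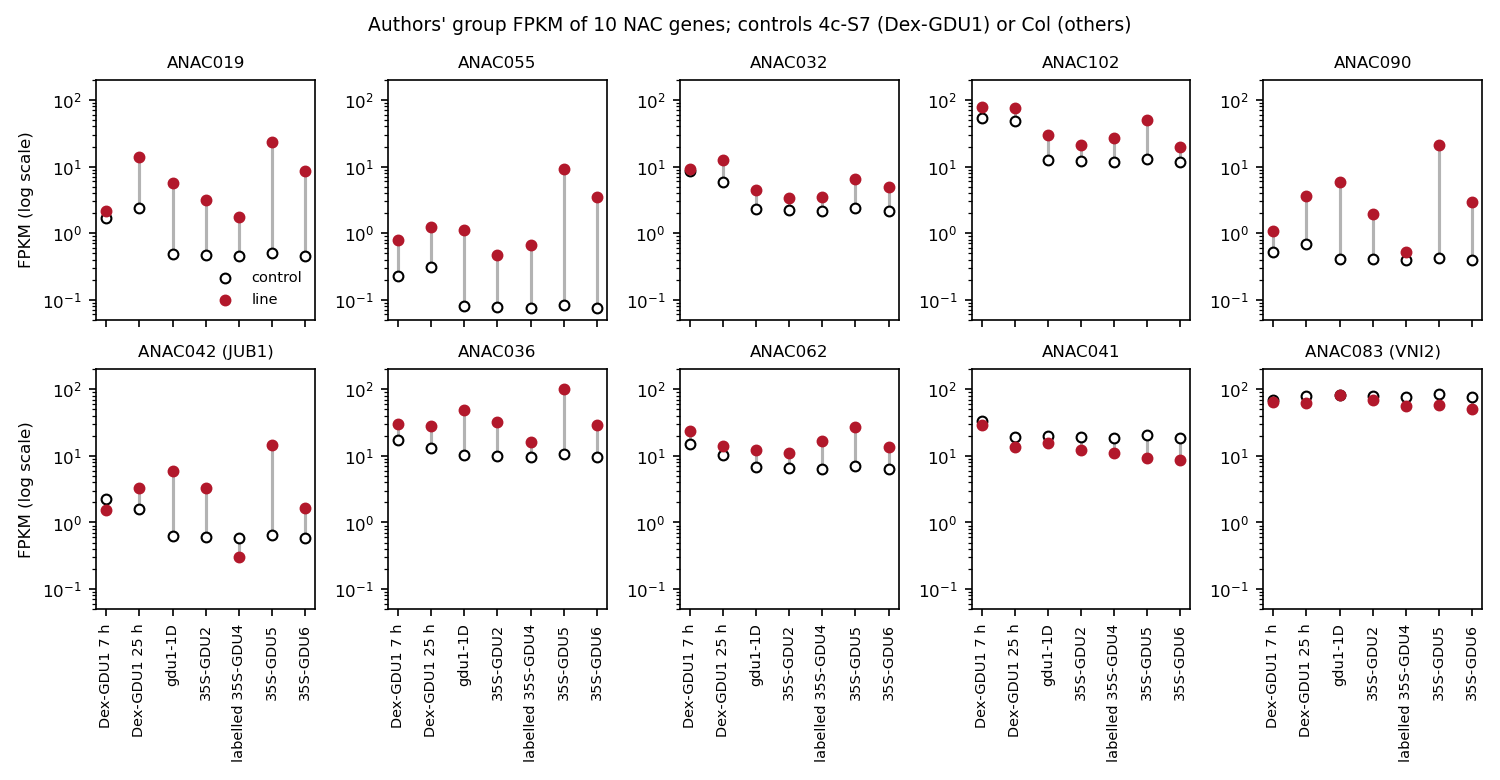
FPKM of 10 NAC members in the control (open points) and the line (filled points) of each comparison, on a log axis, 1 value per group. ANAC019 stands at 2.35 FPKM in 4c-S7 and 14 in Dex-GDU1 at 25 h, and the 35S-GDU5 point is the highest of the 5 constitutive lines for ANAC019, ANAC090 and ANAC036.

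Membrane-tethered members and regulators of organelle stress had small median changes. Of 8 tested in each comparison, 2 were higher at 7 h, 6 at 25 h, 7 in gdu1-1D, 4 in 35S-GDU2, 1 in the libraries labelled 35S-GDU4, 5 in 35S-GDU5 and 4 in 35S-GDU6, beside 8.76%, 24.5%, 23.1%, 14.5%, 9.65%, 28.5% and 24.9% of all tested entries. Lower calls were 1 in the libraries labelled 35S-GDU4 and 1 in 35S-GDU6, both of ANAC013, beside 5.71% and 23.9% of all tested entries. The median log2 fold change of the 8 was 0.03 at 7 h, 0.23 at 25 h, 0.38 in gdu1-1D, 0.22 in 35S-GDU2, 0.02 in the libraries labelled 35S-GDU4, 0.36 in 35S-GDU5 and 0.23 in 35S-GDU6.

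ANAC062 (NTL6, AT3G49530, chromosome 3, 18362443 to 18364913), a plasma membrane factor freed in the cold that induces pathogenesis-related genes, was called in all 7 comparisons. It stood at 15 FPKM in 4c-S7 and 23.8 in Dex-GDU1 at 7 h, and 10.4 and 13.9 at 25 h in the authors' deposited tables. The rise was 1.58-fold at 7 h and 1.34-fold at 25 h. The difference between these changes did not pass (-0.23 on the log2 scale, standard error at most 0.194, adjusted p of 0.451). Both p-values were the smallest possible, so the test cannot show that the changes agree. Unsprayed plants had 6.47 to 7.17 FPKM in Col, and the lines had 12.2 in gdu1-1D, 11.1 in 35S-GDU2, 16.5 in the libraries labelled 35S-GDU4, 26.8 in 35S-GDU5 and 13.6 in 35S-GDU6, in the authors' deposited tables. The libraries labelled 35S-GDU4 were 2.55-fold above Col, which was the largest rise among their called members with at least 1 FPKM after ANAC019.

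ANAC089, an endoplasmic reticulum membrane factor of stress-induced cell death, stood at 5.13 FPKM in 4c-S7 and 4.96 in Dex-GDU1 at 7 h, and 5.94 and 9.77 at 25 h in the authors' deposited tables. It was called at 25 h (1.64-fold) and not at 7 h, and the changes differed by 0.77 on the log2 scale (standard error 0.212, adjusted p of 0.00491). The constitutive lines held 9.91 in gdu1-1D, 8.32 in 35S-GDU2, 5.63 in the libraries labelled 35S-GDU4, 11.7 in 35S-GDU5 and 8.28 in 35S-GDU6, against 5.36 to 5.95 FPKM in Col, in the authors' deposited tables, and all but the libraries labelled 35S-GDU4 were called higher.

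ANAC053 (NTL4) raises reactive oxygen production under drought and, with ANAC078, responds to proteasome stress. It stood at 11.4 FPKM in 4c-S7 and 12 in Dex-GDU1 at 7 h, and 6.8 and 8.26 at 25 h in the authors' deposited tables. Its rise at 25 h was small, at 1.21-fold (q = 0.000856). Against 3.47 to 3.84 FPKM in Col, the authors' deposited tables list 9.45 in gdu1-1D, 6.56 in 35S-GDU2, 3.85 in the libraries labelled 35S-GDU4, 14.3 in 35S-GDU5 and 5.06 in 35S-GDU6. All but the libraries labelled 35S-GDU4 were called, and the 2.55-fold rise in gdu1-1D exceeded that at 25 h by 1.07 on the log2 scale (standard error 0.342, adjusted p of 0.0223). ANAC078, listed as NAC2, was higher at 25 h (1.18-fold), in gdu1-1D (1.22-fold) and in 35S-GDU5 (1.23-fold).

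ANAC017, the endoplasmic reticulum regulator of mitochondrial stress signalling, had a fairly high level and small changes. It stood at 25.3 FPKM in 4c-S7 and 29.4 in Dex-GDU1 at 7 h, and 22.3 and 25.1 at 25 h in the authors' deposited tables. Levels without spraying were 20.4 to 22.6 FPKM in Col and, among the lines, 28.8 in gdu1-1D, 26 in 35S-GDU2, 19.6 in the libraries labelled 35S-GDU4, 30.1 in 35S-GDU5 and 25.2 in 35S-GDU6 in the authors' deposited tables. All ratios called were small, from 1.13-fold at 25 h to 1.33-fold in 35S-GDU5, and the libraries labelled 35S-GDU4 were not called. ANAC013, its mitochondrial stress partner, was called higher in gdu1-1D (1.28-fold) and lower in the libraries labelled 35S-GDU4 (1.5-fold) and in 35S-GDU6 (1.44-fold). Its change in gdu1-1D exceeded that of Dex-GDU1 at 25 h by 0.44 on the log2 scale (standard error 0.135, adjusted p of 0.0168). The joined ANAC068 and ANAC069 entry, a pair of membrane-bound factors, was called at 25 h (1.16-fold) and in gdu1-1D (1.23-fold), and ANAC014 was tested in every comparison and never called.

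The known targets of ANAC017 and ANAC013 among mitochondrial stress genes were called in both directions. Of 9 tested at 25 h, 2 were higher and 4 lower, beside 24.5% and 21.6% of all tested entries, and at 7 h 1 of 10 was higher and 3 were lower, beside 8.76% and 7.19%. In gdu1-1D 5 of 9 were higher and 1 lower, in 35S-GDU2 5 of 9 and 1, in the libraries labelled 35S-GDU4 2 of 8 and 0, in 35S-GDU5 6 of 9 and 2, and in 35S-GDU6 4 of 8 and 3. The shares of all tested entries called higher in these lines were 23.1%, 14.5%, 9.65%, 28.5% and 24.9%. Those called lower were 21.4%, 10.2%, 5.71%, 26.5% and 23.9%. The authors' deposited tables list OM66, an outer mitochondrial membrane protein, at 5.72 FPKM in 4c-S7 and 11.3 in Dex-GDU1 at 25 h, and at 3.01 in Col and 46.6 in 35S-GDU5, both called higher. UPOX, which is raised by oxidative stress, had 40.9 FPKM in 4c-S7 and 25.3 in Dex-GDU1 at 25 h in the authors' deposited table, called lower, and was also lower in gdu1-1D and 35S-GDU5 (log2 fold changes -0.55 and -0.87). AOX1A, the alternative oxidase, was not called at 25 h (-0.11) and was higher in gdu1-1D (0.59) and 35S-GDU5 (0.69).

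SOG1 (ANAC008), the main transcription factor of the plant DNA damage response, was at 8.82 FPKM in 4c-S7 and 8.86 in Dex-GDU1 at 7 h, and 4.37 and 5.67 at 25 h in the authors' deposited tables. It was called at 25 h (1.3-fold), in gdu1-1D (1.5-fold) and in 35S-GDU5 (1.8-fold). The changes at 25 h and 7 h differed by 0.37 on the log2 scale (standard error 0.124, adjusted p of 0.0222). ANAC044 and ANAC085, which stop the cell cycle below SOG1, were tested once and never, and neither was called. Of 5 DNA damage targets of SOG1, 3 were tested at 25 h, where 0 were higher and 1 was lower, beside 24.5% and 21.6% of all tested entries. The counts of higher and lower targets were 0 and 1 of 4 at 7 h, 1 and 2 of 3 in gdu1-1D, 0 and 0 of 3 in 35S-GDU2, 1 and 0 of 3 in the libraries labelled 35S-GDU4, 1 and 0 of 3 in 35S-GDU5 and 0 and 2 of 3 in 35S-GDU6. Of all tested entries 8.76%, 23.1%, 14.5%, 9.65%, 28.5% and 24.9% were called higher, in that order. For lower calls these shares were 7.19%, 21.4%, 10.2%, 5.71%, 26.5% and 23.9%.

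ANAC050 and ANAC052 (the second listed as ANAC051), which recruit the histone demethylase JMJ14 to silence genes, changed little. ANAC052 was called higher in gdu1-1D (1.29-fold) and 35S-GDU5 (1.51-fold), and ANAC050 lower in 35S-GDU6 (1.17-fold). Neither was called at 7 h or 25 h.

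Regulators of secondary walls and xylem vessels were low in leaves. At 25 h 2 of 8 tested were higher and 0 lower, beside 24.5% and 21.6% of all tested entries, so the share called higher was near the background. Calls in the other comparisons were 0 of 6 at 7 h, 1 higher and 1 lower of 7 in gdu1-1D and in 35S-GDU5, 2 lower of 7 in 35S-GDU6, 0 of 7 in 35S-GDU2, and again 0 of 7 for the label 35S-GDU4. Of all tested entries 16.0%, 44.5%, 55.0%, 48.8%, 24.7% and 15.4% were called in both directions, in that order. VND7, the master switch of vessel formation, stood at 0.52 FPKM in 4c-S7 and 1.21 in Dex-GDU1 at 25 h in the authors' deposited table. This 2.33-fold rise was its only call, and at 7 h it was not tested (0.385 and 0.645 FPKM). Without spraying it was listed at 0.86 to 0.953 FPKM in Col and 0.896 to 1.09 in the lines in the authors' deposited tables. VND2, another vessel regulator, was higher at 25 h (1.91-fold), in gdu1-1D (1.86-fold) and in 35S-GDU5 (1.65-fold), from 0.679, 0.602 and 0.625 FPKM in the controls of the authors' deposited tables. VND6, which also switches on vessel formation, was lower in 35S-GDU6 (1.59-fold, q = 0.0383). SND2, a fibre wall regulator, was lower in gdu1-1D (1.51-fold), in 35S-GDU5 (1.72-fold) and in 35S-GDU6 (1.65-fold). Its log2 change in gdu1-1D minus that at 25 h was -0.89 (standard error 0.292, adjusted p of 0.0269). SND3, ANAC075, VND3 and XND1, a brake on xylem formation, were tested and never called.

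Of 7 wall and vessel targets of these factors, 5 were higher and 0 lower at 25 h, beside 24.5% and 21.6% of all tested entries, and 0 of 5 tested were called at 7 h, beside 16.0% of all in both directions. MYB46, the wall regulator directly below the vessel factors, stood at 0.729 FPKM in 4c-S7 and 1.46 in Dex-GDU1 at 25 h in the authors' deposited table. The proteases XCP1 and XCP2 and the cellulose synthases CESA4 and CESA7 rose by 0.22, 0.18, 0.43 and 0.51 on the log2 scale at 25 h. In gdu1-1D and in the libraries labelled 35S-GDU4 0 of 6 tested were called, beside 44.5% and 15.4% of all in both directions. In 35S-GDU2 0 were higher and 1 lower, in 35S-GDU5 0 and 3, and in 35S-GDU6 0 and 2. Of all tested entries 10.2%, 26.5% and 23.9% were lower there, in that order.

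Among members with roles in development, NARS1 (ANAC056, listed as ATNAC2), which acts in seed coat growth, was called higher in 6 comparisons. It stood at 3.96 FPKM in 4c-S7 and 5.08 in Dex-GDU1 at 7 h, and 6.11 and 7.27 at 25 h in the authors' deposited tables. Per the authors' deposited tables, the unsprayed lines had 8.74 in gdu1-1D, 7.78 in 35S-GDU2, 5.96 in the libraries labelled 35S-GDU4, 7.68 in 35S-GDU5 and 9.83 in 35S-GDU6, beside 5.82 to 6.45 FPKM in Col. The rises were small, from 1.19-fold at 25 h to 1.69-fold in 35S-GDU6, and the libraries labelled 35S-GDU4 were not called.

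LOV1 (ANAC035), which delays flowering, went both ways. It stood at 21 FPKM in 4c-S7 and 22.7 in Dex-GDU1 at 7 h, and 15.5 and 15.7 at 25 h in the authors' deposited tables, with no call at either time. Unsprayed plants had 13.5 to 15 FPKM in Col, and the lines had 12.2 in gdu1-1D, 10.6 in 35S-GDU2, 19 in the libraries labelled 35S-GDU4, 12 in 35S-GDU5 and 13.9 in 35S-GDU6, in the authors' deposited tables. It was called lower in gdu1-1D, 35S-GDU2 and 35S-GDU5 (at most 1.32-fold) and 1.4-fold higher in the libraries labelled 35S-GDU4. A second ANAC035 entry at the same locus stayed at or under 1.22 FPKM and was not called.

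NAC1, which carries auxin signals to lateral roots, was called higher in gdu1-1D (1.56-fold), 35S-GDU5 (1.93-fold) and 35S-GDU6 (1.32-fold). It stood at 33 FPKM in 4c-S7 and 29.1 in Dex-GDU1 at 7 h, and 11.2 and 13.5 at 25 h in the authors' deposited tables. Neither time was called, yet the changes differed between the times by 0.46 on the log2 scale (standard error 0.153, adjusted p of 0.0231). The 4c-S7 level itself was higher at 7 h than at 25 h, and these come from tables normalised separately. ANAC045, ANAC100 and ANAC080 (listed as ANAC079) were tested and never called, and 5 other developmental members, such as ANAC071 and ANAC086, were not tested in any comparison.

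ANAC036 (AT2G17040, chromosome 2, 7406883 to 7408270), whose over-expression dwarfs plants, was called higher in all 7 comparisons. It stood at 17.6 FPKM in 4c-S7 and 29.8 in Dex-GDU1 at 7 h, and 13.1 and 27.8 at 25 h in the authors' deposited tables. It was called at both times, 1.7-fold and 2.13-fold higher. The difference between these changes did not pass (0.33 on the log2 scale, standard error at most 0.328, adjusted p of 0.558). Both p-values were the smallest possible, so the test cannot show that the changes agree. The constitutive lines held 48.8 in gdu1-1D, 32.3 in 35S-GDU2, 16.2 in the libraries labelled 35S-GDU4, 101 in 35S-GDU5 and 28.7 in 35S-GDU6, against 9.65 to 10.7 FPKM in Col, in the authors' deposited tables. The 35S-GDU5 level was 9.45 times that of Col and the highest listed for any member in the 14 columns. The lowest of the 5 rises was 1.67-fold, in the libraries labelled 35S-GDU4.

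ANAC041 (AT2G33480, chromosome 2, 14180987 to 14182411) was the member called lower in all 7 comparisons. It stood at 33.7 FPKM in 4c-S7 and 29.4 in Dex-GDU1 at 7 h, and 19.1 and 13.8 at 25 h in the authors' deposited tables. Its fall was 1.15-fold at 7 h (q = 0.0345) and 1.38-fold at 25 h (q = 0.00019), and the difference between these did not pass (-0.27 on the log2 scale, standard error 0.134, adjusted p of 0.160). Against 18.4 to 20.4 FPKM in Col, the authors' deposited tables list 15.7 in gdu1-1D, 12.1 in 35S-GDU2, 11.1 in the libraries labelled 35S-GDU4, 9.26 in 35S-GDU5 and 8.75 in 35S-GDU6. Every line lay below Col, from 1.25-fold in gdu1-1D to 2.2-fold in 35S-GDU5.

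ANAC061 was low in Col and rose in several lines. It stood at 2.19 FPKM in 4c-S7 and 2.46 in Dex-GDU1 at 7 h, and 1 and 1.77 at 25 h in the authors' deposited tables. Levels without spraying were 0.362 to 0.402 FPKM in Col and, among the lines, 2.2 in gdu1-1D, 1.2 in 35S-GDU2, 0.739 in the libraries labelled 35S-GDU4, 7.83 in 35S-GDU5 and 0.677 in 35S-GDU6 in the authors' deposited tables. It was called at 25 h and in gdu1-1D, 35S-GDU2 and 35S-GDU5, where the ratio reached 19.5 (log2 rise 4.29, or 2.66 with 1 FPKM added to both values).

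The joined ANAC003, ANAC004 and ANAC005 entry stood at 3.89 FPKM in 4c-S7 and 4.05 in Dex-GDU1 at 7 h, and 4.05 and 8.89 at 25 h in the authors' deposited tables. Per the authors' deposited tables, the unsprayed lines had 12.8 in gdu1-1D, 7.25 in 35S-GDU2, 1.68 in the libraries labelled 35S-GDU4, 31.6 in 35S-GDU5 and 4.24 in 35S-GDU6, beside 4.22 to 4.67 FPKM in Col. It was higher at 25 h, in gdu1-1D, in 35S-GDU2 and in 35S-GDU5 and 2.52-fold lower in the libraries labelled 35S-GDU4. Which of the 3 genes moved cannot be read from 1 joined value. ANAC001, at the start of chromosome 1, stood at 4.56 FPKM in 4c-S7 and 4.3 in Dex-GDU1 at 7 h, and 2.76 and 4.62 at 25 h in the authors' deposited tables. Unsprayed plants had 1.37 to 1.52 FPKM in Col, and the lines had 3.81 in gdu1-1D, 2.31 in 35S-GDU2, 1.23 in the libraries labelled 35S-GDU4, 4.55 in 35S-GDU5 and 1.43 in 35S-GDU6, in the authors' deposited tables. It was called higher at 25 h (1.68-fold), in gdu1-1D, in 35S-GDU2 and in 35S-GDU5.

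Among the members that fell, ANAC088 and NAC097 had the largest ratios. ANAC088 stood at 3.5 FPKM in 4c-S7 and 1.62 in Dex-GDU1 at 25 h, at 3.22 and 1.66 in Col and gdu1-1D, and at 3.34 and 0.549 in Col and 35S-GDU5, in the authors' deposited tables. All 3 were called lower, by 2.17-fold, 1.93-fold and 6.08-fold. NAC097 stood at 1.28 and 0.63 FPKM at 25 h and at 1.6 and 0.363 in Col and 35S-GDU6 in the authors' deposited tables. It was lower in both and in 35S-GDU5, by 2.03-fold, 4.42-fold and 1.92-fold. ANAC028 was lower in 35S-GDU5 (1.65-fold) and 35S-GDU6 (2.05-fold), and the joined ANAC027 entry in 35S-GDU5 (1.39-fold).

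The change at 25 h was set against the change at 7 h for the 45 members tested at both times. These times also differ in time of day and in time since the dome, which cannot be told apart from time since spraying. At an adjusted p below 0.05, the change of 10 members was more positive at 25 h and that of 0 more negative, beside 10.4% and 6.88% of all 17114 tested entries (17.2% in both directions). These 10 were ANAC001, ANAC032, the joined ANAC003, ANAC004 and ANAC005, SOG1, ANAC019, NAC1, JUB1, ANAC078, ANAC087 and ANAC089. The result depends on the standard error. With the standard error taken from the deposited test statistic in place of the p-value, 1 of these 10, ANAC019, passed.

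In the comparison of constitutive with induced GDU1, 46 members were tested in both. The change in gdu1-1D was more positive than that of Dex-GDU1 at 25 h for ANAC013, ANAC016 and ANAC053 and more negative for SND2, which is 3 and 1 of 46 beside 5.05% and 6.60% of all 17329 tested entries (11.6% in both directions). With the standard error from the test statistic, 2 members passed, ANAC036 and ANAC053. Plants, age of expression, treatment and sampling differ between these comparisons. The rise of ANAC019 was 3.53 on the log2 scale in gdu1-1D and 2.58 at 25 h. The difference of 0.95 did not pass (standard error at most 1.08, adjusted p of 0.657), and both p-values were the smallest possible.

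**Figure D4:**
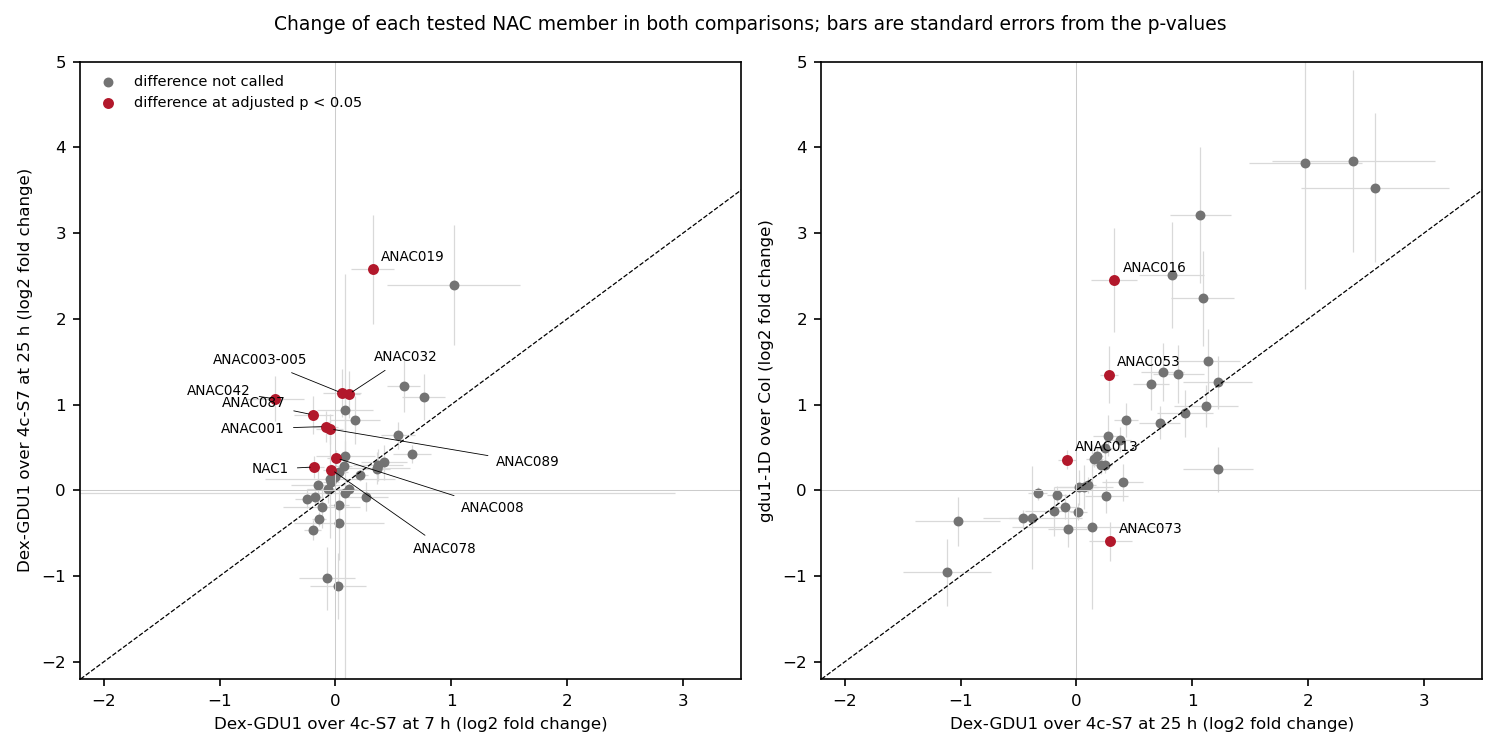
Log2 fold change of NAC members at 25 h against that at 7 h in Dex-GDU1 (left, 42 members drawn) and in gdu1-1D against that at 25 h (right, 43 members drawn), with standard errors recomputed from the p-values as bars, and 3 members with a standard error of 3 or more left out of each. Named points passed the test of the difference: on the left all 10 lie above the diagonal, ANAC019 farthest at 2.25.

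Markers of leaf cell types moved in some of the comparisons as well. Of all tested entries 7.19% were called lower at 7 h, 21.6% at 25 h, 21.4% in gdu1-1D and 10.2% in 35S-GDU2. The shares were 5.71% in the libraries labelled 35S-GDU4, 26.5% in 35S-GDU5 and 23.9% in 35S-GDU6. Called higher, in that order, were 8.76%, 24.5%, 23.1%, 14.5%, 9.65%, 28.5% and 24.9%. Of 4 guard cell genes (MYB60, FAMA, KAT1 and SLAC1), 0 were called at 7 h, 2 were lower at 25 h and in gdu1-1D, 3 in 35S-GDU2 and in 35S-GDU6, 1 in the libraries labelled 35S-GDU4 and 4 in 35S-GDU5, where their summed level was 54.2 FPKM in Col and 25.2 in the line. Over the 7 comparisons their summed level ranged from 39.9 to 54.2 FPKM in controls and from 25.2 to 49.3 in lines. The phloem genes SUC2 and APL summed to 163 FPKM in 4c-S7 and 225 in Dex-GDU1 at 25 h, where SUC2 was higher, as it was at 7 h. In gdu1-1D, 35S-GDU2 and 35S-GDU6 SUC2 was higher and APL lower, in 35S-GDU5 both were lower (149 FPKM in Col and 113 in the line), and in the libraries labelled 35S-GDU4 neither was called. Over the 7 comparisons the phloem sum ranged from 134 to 171 FPKM in controls and from 113 to 225 in lines. Of the mesophyll genes, CA1 was lower in gdu1-1D, 35S-GDU2, 35S-GDU5 and 35S-GDU6, and LHCB1.1 was higher at 7 h and lower in gdu1-1D and 35S-GDU5. In 35S-GDU5 CA1 stood at 5561 FPKM in Col and 2237 in the line, and LHCB1.1 at 7311 and 5108. RBCS1A was not tested in any comparison: it was listed at 0 in all controls and, in 35S-GDU2, 35S-GDU5 and 35S-GDU6, at 14874 FPKM or more, so the sum of the 3 mesophyll genes (from 4185 to 12872 FPKM in controls and from 4063 to 32110 in lines) turns on it. The epidermis genes GL2 and ATML1 summed to between 20.8 and 24.2 FPKM in controls and between 19 and 24.2 in lines, with ATML1 lower at 25 h and in gdu1-1D. The 3 root genes summed to at most 0.668 FPKM in any group, and the 3 flower genes to at most 2.15. The part of cell type shares in the NAC changes was not tested.

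NAC genes listed only under other symbols were counted for completeness. Of 18 such genes, 8 were tested at 25 h, where 5 were higher and 0 lower, beside 24.5% and 21.6% of all tested entries. The counts of higher and lower were 3 and 0 of 8 at 7 h, 6 and 0 of 9 in gdu1-1D, 4 and 0 of 8 in 35S-GDU2, 4 and 0 of 8 in the libraries labelled 35S-GDU4, 5 and 0 of 8 in 35S-GDU5 and 4 and 1 of 7 in 35S-GDU6. Of all tested entries 8.76%, 23.1%, 14.5%, 9.65%, 28.5% and 24.9% were called higher, in that order. For lower calls these shares were 7.19%, 21.4%, 10.2%, 5.71%, 26.5% and 23.9%. RD26, a close relative of ANAC019 and ANAC055, named after its values were seen, was called higher in all 7 comparisons. It stood at 8.06 FPKM in 4c-S7 and 43 in Dex-GDU1 at 25 h, and at 4.12 and 38.8 in Col and 35S-GDU5, in the authors' deposited tables. The share of all entries called as often as RD26 was not computed.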

How the data were processed

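Per the submitters' processing notes, reads were handled with TopHat2, Cufflinks and Cuffdiff on TAIR10; versions, annotation, filters and strand setting are not given in the sources used here. Without strand, overlapping genes on opposite strands cannot be told apart. The authors deposited 1 FPKM value per entry and group in 7 tables, each normalised separately. In the deposited constitutive tables the Col FPKM values are the same up to 1 factor per table (0.935 to 1.04 times the gdu1-1D table, within 1% for at least 99.98% of entries above 1 FPKM). Per the file headers, each entry has a Cuffdiff p-value, a q-value and a test statistic, a score used here only for an alternative standard error. The deposited log2 column was not used. With 1 value per group, depth and spread per library are unknown and no count model or test over libraries could be fitted; the authors' q-values stand in for it.

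Computed here (Python 3.11.15, pandas 2.3.3, numpy 2.4.6, scipy 1.17.1, matplotlib 3.10.9) were log2 ratios of FPKM, standard errors from ratio and p-value, and tests of differences between changes (two-sided normal test, Benjamini-Hochberg over all entries tested in both), a procedure tested on simulated data. The simulation used the same normal model as the test. It therefore cannot show whether the authors' p-values give the right standard errors. Listed starts count from 0: of 16333 entries with a locus tag alone in their stretch, 8360 start at the RefSeq gene start with 1 added and 71 as listed, so 1 was added. Promoters were read from the RefSeq TAIR10.1 genome.

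Named with levels in every group are members called in at least 4 of the 7 comparisons. The members with the 10 largest changes at 25 h are named too. Of these, ANAC088 is given in single comparisons only, and VND7 with ranges for the unsprayed plants. Others are named for large changes in single comparisons or for a difference test. Members, gene lists and the rule were chosen with earlier results of these data known. Alternatives were q below 0.01, an FPKM minimum of 1, a minimum log2 change of 1 without and with a pseudocount of 1, centring on the median entry, adjustment over tested entries of at least 1 FPKM, leaving out joined entries, and the standard error from the test statistic. A further one, without the entries that share a stretch, was added after seeing the data.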

Additional observations from a re-analysis of the deposited data

Results flagged for a closer look

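The test of the difference marked 10 members whose change in Dex-GDU1 was more positive at 25 h than at 7 h. Time of day and time since the dome differ between these times as well. On the log2 scale the differences were 0.83 for ANAC001, 1.01 for ANAC032, 1.08 for the joined ANAC003, ANAC004 and ANAC005, 0.37 for SOG1 (ANAC008), 2.25 for ANAC019, 0.46 for NAC1, 1.59 for JUB1 (ANAC042), 0.28 for ANAC078 (listed as NAC2), 1.07 for ANAC087 and 0.77 for ANAC089. Between gdu1-1D and Dex-GDU1 at 25 h the test marked 4 members, with differences of 0.44 for ANAC013, 2.13 for ANAC016, 1.07 for ANAC053 and -0.89 for SND2 (ANAC073). The tables hold 1 value per group, so no library could be compared with others of its group. The 10 and 4 calls rest on standard errors recomputed from p-values.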

How the results depend on the processing

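Counts of called members stayed within 1.5 times the reported count in 46 of 66 settings. Some of these settings could hardly move a count. Centring left every count the same, and leaving out joined entries removes at most 3 members. The 46 is therefore no measure of how stable the counts are. Centring shifted log2 values by at most 0.01, too little to test any named change, and a pseudocount cannot turn a direction. With a pseudocount of 1, 30 of the 115 named fold changes moved by more than 1.5 times. With a minimum log2 fold change of 1, the calls in both directions were 0 at 7 h, 11 at 25 h, 13 in gdu1-1D, 5 in 35S-GDU2, 4 in the libraries labelled 35S-GDU4, 17 in 35S-GDU5 and 12 in 35S-GDU6. With a pseudocount of 1 as well they were 0, 4, 9, 3, 2, 17 and 5 in that order; fewer entries reach the fold by construction. Without the entries that share a stretch, an alternative chosen after seeing the data, 18 members were called in gdu1-1D and 7 in the libraries labelled 35S-GDU4, since fewer entries remain. Of the members that differed between the times, 6 passed at an adjusted p below 0.01 and 1 with the standard error from the test statistic. For gdu1-1D against 25 h these counts were 0 and 2. No paired analysis was possible because only 1 value per group was deposited, and leaving out each replicate was not run for the same reason. Depth per library is unknown, so for members near 0 FPKM in Col, such as ANAC055 and ANAC090, the reads behind a ratio cannot be counted.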

Other observations

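Long stretches of overlapping reads carried few calls. Among entries in stretches shared by at least 20 entries, the percentage called was 0.286% at 7 h, 2.94% at 25 h, 3.24% in gdu1-1D, 1.44% in 35S-GDU2, 0.587% in the libraries labelled 35S-GDU4, 5.77% in 35S-GDU5 and 4.49% in 35S-GDU6. Elsewhere it was 16.6%, 48.0%, 46.2%, 25.7%, 16.0%, 57.1% and 50.7% in the same order. ANAC046, ANAC047, ANAC048 and ANAC049 lie in the stretch of 87 entries and ANAC057 in a stretch of 69, and none of these 5 was called.

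Further NAC genes under other symbols were called higher in several comparisons. The share of all entries called as often was not computed. ATAF2, named after its values were seen, was called higher in all 7 comparisons. The authors' deposited tables list it at 74.6 FPKM in 4c-S7 and 93.6 in Dex-GDU1 at 7 h, and at 11 in Col and 82.4 in 35S-GDU5. ATAF1, chosen likewise, was called in 6 of the 7. The authors' deposited tables list 21.6 FPKM in 4c-S7 and 24.8 in Dex-GDU1 at 7 h (q = 0.0779), and 17.6 and 35.2 at 25 h.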
